A study of Mus musculus with 2 samples.

Results

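CTCF peaks around olfactory receptor genes were described in newborn mouse kidney. A peak of the authors' optimal list was counted as a receptor peak when its summit lay inside, or within 50 kb of, a gene whose GENCODE symbol starts with Olfr and digits. On chromosomes 1 to 19 this gave 417 of 63856 peaks (65482 in the whole list), around 1399 receptor genes, of which 1128 are protein-coding and 271 are pseudogenes. The study mapped CTCF by ChIP-seq in whole kidney of B6NCrl mice at postnatal day 0. The study holds 1 group of 2 libraries and no second condition. One biosample and one donor are named for both libraries in the labels, so the spread between them may be technical. The peak lists hold no read counts, so the depth of each library is unknown. The tissue was taken whole, so binding in few cells and weak binding in many cannot be told apart.

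Olfactory receptors are G protein-coupled receptors that detect odorants and form one of the largest gene families of the mouse. The genes sit in clusters on many chromosomes, each mature olfactory neuron expresses a single receptor allele, and most receptor genes are silent in other tissues. CTCF is a zinc-finger protein that binds DNA through a long directional motif. It stops loop extrusion by cohesin and marks many boundaries of chromatin domains.

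The sequences under the strongest peaks show what was bound. A 19 bp matrix was learned from peaks outside the receptor windows, leaving out soft-masked sequence (repeats, lower case in the reference), and a match was a score passed by 1 in 10000 positions 2 kb from peaks. The set below gives its consensus, then the 5 highest-signal flank peaks and the 5 highest-signal interior peaks. A flank is the 50 kb outside each end of a cluster and an interior runs from its first to its last gene. Each line gives the 19 matched bases in capitals with 20 bases on either side, on the strand of the match, from the RefSeq GRCm38.p6 sequence.
Consensus of the learned matrix: GGCCACCAGGGGGCACTAT
Flank peak near Olfr1379-ps1, chr11:50940066-50940124, + strand: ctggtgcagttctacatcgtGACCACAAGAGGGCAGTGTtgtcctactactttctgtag
Flank peak near Olfr155, chr4:43861310-43861368, - strand: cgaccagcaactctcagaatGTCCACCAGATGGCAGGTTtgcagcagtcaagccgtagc
Flank peak near Olfr1319-ps1, chr2:112197042-112197100, + strand: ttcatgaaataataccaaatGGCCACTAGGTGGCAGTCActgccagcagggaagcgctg
Flank peak near Olfr90, chr17:37083508-37083566, + strand: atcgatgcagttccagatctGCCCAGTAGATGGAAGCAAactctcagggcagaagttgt
Flank peak near Olfr1359, chr13:21714890-21714948, + strand: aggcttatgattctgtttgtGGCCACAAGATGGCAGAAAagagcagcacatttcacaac
Interior peak near Olfr94, chr17:37203793-37203851, - strand: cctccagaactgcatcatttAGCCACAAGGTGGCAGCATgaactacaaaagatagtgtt
Interior peak near Olfr283, chr15:98389989-98390047, - strand: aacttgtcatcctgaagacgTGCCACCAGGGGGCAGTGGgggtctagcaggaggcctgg
Interior peak near Olfr650-ps1, chr7:104199968-104200026, + strand: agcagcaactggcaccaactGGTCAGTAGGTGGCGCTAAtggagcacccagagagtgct
Interior peak near Olfr71, chr4:43712000-43712058, - strand: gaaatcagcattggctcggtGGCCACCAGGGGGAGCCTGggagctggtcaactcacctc
Interior peak near Olfr557, chr7:102695554-102695612, + strand: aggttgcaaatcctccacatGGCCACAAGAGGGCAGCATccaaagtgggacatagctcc
These peaks were all intergenic, and each overlapped the upper set in both libraries. The upper set of a library is its highest-signal peaks, as many as the optimal list holds. The flank peak near Olfr1379-ps1 had a signal above 98.4% of peaks, and the interior peak near Olfr94 was at the 99.7th percentile. The peak near Olfr94 ranked 184 in the whole optimal list, 87 in the list of replicate 1 and 482 in that of replicate 2. The flank peak near Olfr1359 lay 1223 bp from the start of Hist1h2bl, a histone gene, so a peak near a receptor cluster can also be near another gene. Over all receptor peaks, 49.6% had a receptor transcription start site (TSS) as the nearest protein-coding or receptor start.

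Receptor neighbourhoods held few CTCF peaks. The windows covered 35.92 Mb, which is 1.50% of the readable bases and 0.653% of the peaks of chromosomes 1 to 19. Their density was 11.6 peaks per Mb (95% Poisson interval 10.5 to 12.8), against 26.7 over chromosomes 1 to 19, a ratio of 0.436. The same ratio was 0.423 in the upper set of replicate 1 and 0.422 in that of replicate 2. Intervals cover counting error only, and peaks are not independent replicates. Windows drawn the same way around other protein-coding genes held 36.3 peaks per Mb. Windows around Zfp genes, another clustered family, held 40.9 peaks per Mb, and windows around the Vmn1r and Vmn2r vomeronasal receptors, which detect pheromones, held 4.22.

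The low density lay inside the clusters and not beside them. Receptor genes up to 100 kb apart were joined, which gave 85 clusters. Of these, 28 were single genes, 18 had 2 to 4 genes, and 39 had 5 or more and held 1318 genes (94.2%). The flanks of the 39 clusters held 136 peaks, or 34.9 per Mb (29.3 to 41.3), and the interiors held 108 peaks in 26.09 Mb, or 4.14 per Mb (3.40 to 5.00). The flank density was 8.42 times the interior density. It was 32.8 against 4.29 per Mb in replicate 1, a ratio of 7.65, and 34.6 against 3.83 per Mb in replicate 2, a ratio of 9.03. The difference was thus several times larger than the difference between libraries, although a single group allows no test. The flank level was close to that around other protein-coding genes. Windows of clusters under 5 genes held the other 173 peaks, at 29.2 per Mb, with an interval (24.99 to 33.9) that spans the chromosome density.

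**Figure D1:**
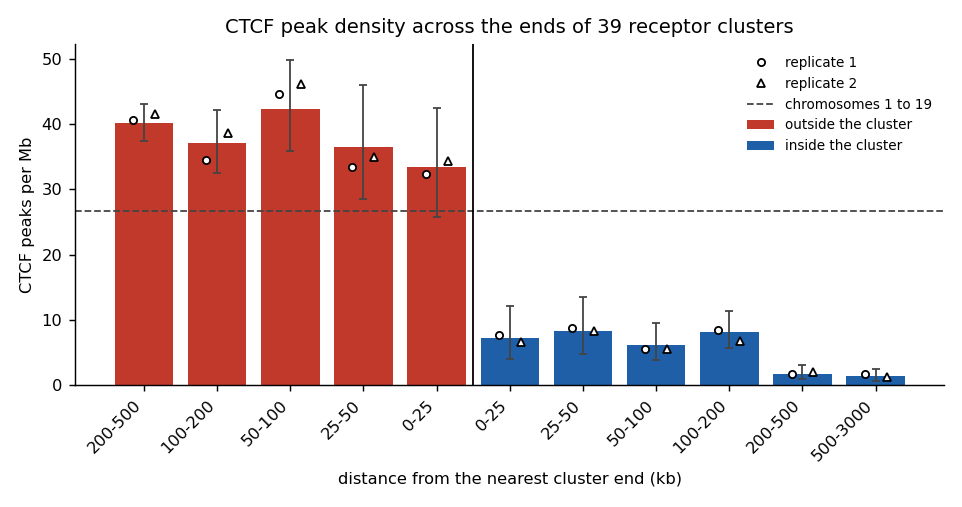
CTCF peaks per Mb (vertical axis) by distance in kb from the nearest end of 39 clusters of 5 or more receptor genes. Outside is red and inside is blue, and outside bins leave out the 50 kb windows of other receptor clusters. Bars show the optimal list with 95% Poisson intervals, open symbols the upper set of each library and the dashed line chromosomes 1 to 19 (26.7); every outside bin lies at 33.3 or above and every inside bin at 8.29 or below.

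The density fell at the cluster ends and again beyond 200 kb inside. Outside bins left out the 50 kb windows of other receptor clusters. Outside, the density was 40.2 per Mb at 200 to 500 kb from the end, 37.1 at 100 to 200 kb, 42.4 at 50 to 100 kb, 36.4 at 25 to 50 kb and 33.3 within 25 kb. Inside, it was 7.18 per Mb within the first 25 kb, 8.29 at 25 to 50 kb, 6.17 at 50 to 100 kb and 8.21 at 100 to 200 kb. Deeper still it was 1.76 at 200 to 500 kb, a depth that 18 clusters reach, and 1.37 beyond 500 kb, which 10 clusters reach. Inside, the intervals at 100 to 200 kb (5.7 to 11.4, from 25 clusters) and at 200 to 500 kb (0.936 to 3.01) did not overlap. The intervals of neighbouring outside bins overlapped, and the bin next to the cluster end was the lowest of them. The 50 kb limit of the rule fell on no break: 57 peaks at 31.8 per Mb, with a median signal percentile of 57.9, lay 40 to 50 kb from a receptor gene, and 57 peaks at 34.1 per Mb, with a median of 51.1, lay 50 to 60 kb away.

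Single clusters followed the same order in most cases. The flank density was the higher in 31 of 39 clusters, the interior density in 7, and 1 cluster had no peak in either. In the upper set of replicate 1 the flank was the higher in 33 clusters and in that of replicate 2 in 31. The interior lay under the chromosome density in 38 of 39 clusters, and so did the flank in 16. A peak was present in 55 of 78 flanks. The first peak beyond a cluster end was a median of 23.7 kb away, with quartiles of 9.64 and 55.3 kb.

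**Figure D2:**
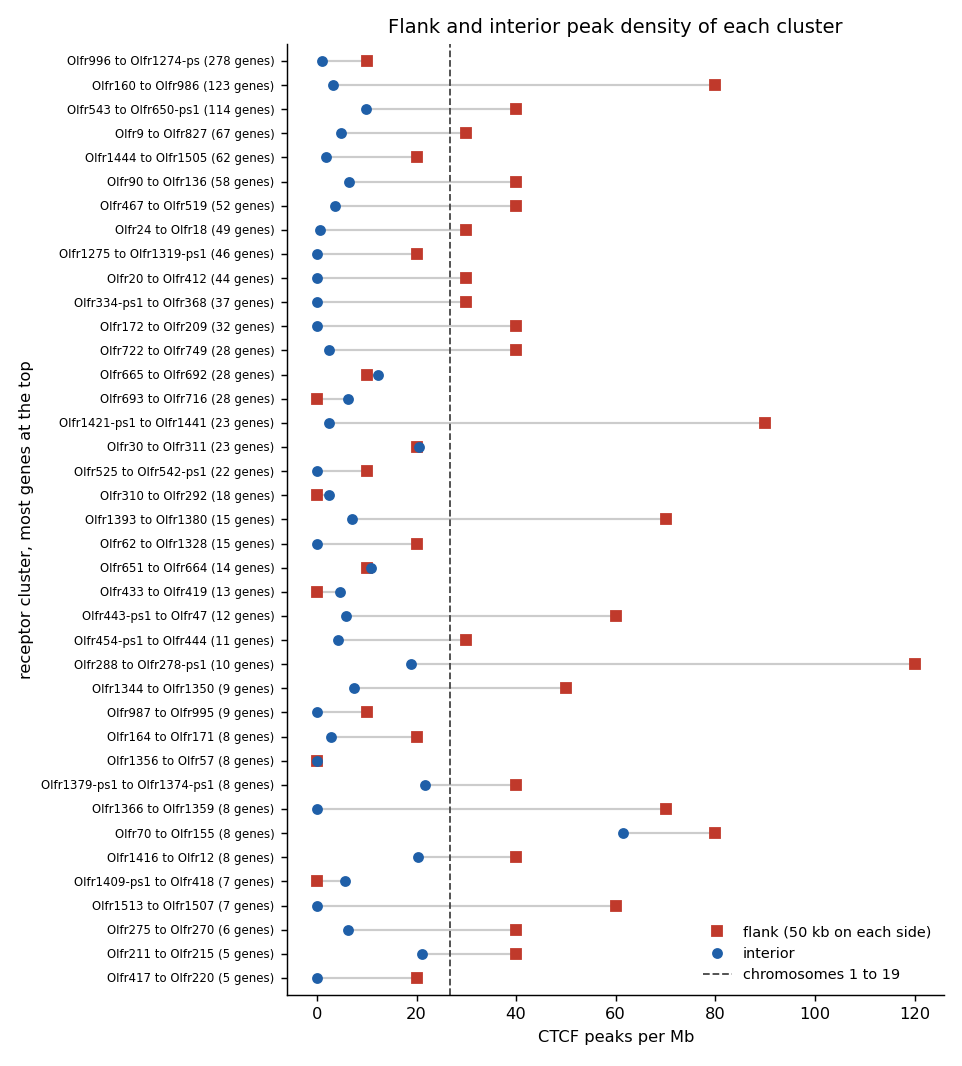
Peaks per Mb (horizontal axis) in the flanks (red squares) and the interior (blue circles) of each of 39 clusters, with the most receptor genes at the top; the dashed line is the density of chromosomes 1 to 19. Flank squares lie to the right in 31 clusters, and the Olfr70 to Olfr155 interior, at 61.4 per Mb, is the one interior to the right of the dashed line.

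Both clusters with the most genes held few peaks for their length. The Olfr996 to Olfr1274-ps cluster at chr2:85579215-90403897 has 278 receptor genes in 4.82 Mb and held 1 flank peak and 5 interior peaks. Its longest stretch between interior peaks ran 1891.5 kb and held 111 receptor genes. The Olfr160 to Olfr986 cluster on chromosome 9 has 123 genes and held 8 flank peaks (80 per Mb) and 8 interior peaks (3.22 per Mb). The Olfr24 to Olfr18 cluster, also on chromosome 9, has 49 genes, with 3 flank peaks and 1 interior peak, and neither library had an interior peak there in its upper set. The third in size, Olfr543 to Olfr650-ps1 with 114 genes, held 17 interior peaks, more than any other cluster. Among the other clusters of 44 to 67 genes, interior peaks numbered 6 in Olfr9 to Olfr827, 2 in Olfr1444 to Olfr1505, 8 in Olfr90 to Olfr136, 4 in Olfr467 to Olfr519, 0 in Olfr1275 to Olfr1319-ps1 and 0 in Olfr20 to Olfr412.

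Of the 26 clusters of 10 or more genes, 6 had no interior peak, and these hold 196 receptor genes. Each library alone also left 6 such clusters empty, and 4 clusters were empty in the optimal list and in both libraries. Olfr62 to Olfr1328 had 1 interior peak in replicate 1, and Olfr20 to Olfr412 had 1 in replicate 2. Taking the longest peak-free stretch of each cluster, 12 were longer than 0.5 Mb and held 581 receptor genes, or 41.5% of all. Interiors of the 11 clusters over 0.9 Mb held 51 peaks in 18.25 Mb (2.80 per Mb), those of clusters of 0.5 to 0.9 Mb held 1.37 per Mb (0.166 to 4.96), and those of the 26 clusters under 0.5 Mb held 55 peaks (8.61 per Mb). The flanks of these size classes held 33.6, 40 and 35 peaks per Mb.

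A few interiors were well filled. Among clusters of 10 or more genes the densest were Olfr30 to Olfr311 on chromosome 11 (20.5 per Mb), Olfr288 to Olfr278-ps1 on chromosome 15 (18.9 per Mb) and Olfr665 to Olfr692 on chromosome 7 (12.2 per Mb). Other protein-coding genes in these interiors numbered 3, 5 and 0. Olfr70 to Olfr155 on chromosome 4, with 8 receptor genes and 2 other protein-coding genes in 0.163 Mb, held 8 flank peaks and 10 interior peaks. The 5 clusters with the most interior peaks held 51 of the 108 in 23.1% of the interior length.

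Seen from the genes, most receptors were far from any peak. The median distance from a receptor gene to the nearest summit was 94.7 kb, against 0 kb for other protein-coding genes, most of which contain a summit. Farther than 50 kb from any summit were 910 receptor genes (65.0%), against 7.14% of other protein-coding genes.

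Promoter peaks were rare. A summit lay within 1 kb of a TSS in 15 of 1399 receptor genes, or 1.07% (95% Wilson interval 0.651 to 1.76), against 42.6% of 19679 other protein-coding genes. The upper set of replicate 1 gave 16 receptor genes and that of replicate 2 gave 12. Of the 15 genes, 11 were in clusters of 5 or more, 4 were pseudogenes, and 10 had a motif match under the peak. The upper set included the peak in both libraries for 12 genes. Olfr15 had a pair of such peaks, so the 15 genes had 16 peaks, 0 of which lay within 1 kb of another protein-coding TSS. The strongest was at Olfr557, 331 bp from the TSS and at the 92.8th percentile. Olfr1542-ps1, Olfr1069-ps1 and Olfr156 followed at 75.1, 74.7 and 74.1. Olfr15 had a peak at 73.2, which lay 736 bp from a TSS, and a weaker one at 30.9, which lay 13 bp from a TSS. Next were Olfr1499 at 69.4, Olfr556 at 67.6, Olfr1368 at 64.1, Olfr658 at 63.2, Olfr1398-ps1 at 58.3, Olfr304 at 45.3 and Olfr458 at 35.6. Olfr94, Olfr797-ps1 and Olfr214 had the weakest promoter peaks, at 4.29, 3.898 and 2.84, and these were the 3 that did not reach both upper sets.

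A short list of receptors with reported roles in the kidney held Olfr78, Olfr90, Olfr1392 and Olfr1393. None of these had a promoter peak, which 1.07% of all receptor genes had. The list is not complete, so nothing follows for other receptors reported in the kidney. Olfr78, a receptor for short-chain fatty acids found in renal vessels, had its nearest summit 6092 bp from the TSS, inside the gene and at the 44.7th percentile, with a motif match. Olfr1393, reported in the proximal tubule, had its nearest summit 6796 bp away in the flank of its cluster, at the 81.0th percentile. The same peak was the nearest to Olfr1392, at 13774 bp. Olfr90 had a peak at percentile 59.1 with a motif match, 1391 bp from its TSS. An overlapping call 1186 bp from the TSS was at percentile 0.0548, the lowest of all receptor peaks. Olfr90 also had a strong peak in the flank beyond it at the 94.5th percentile.

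Genes that work with the receptors in olfactory neurons were read the same way. The list held the transduction genes Gnal, Adcy3, Cnga2, Cnga4, Cngb1 and Ano2, the marker Omp, the chaperones Ric8b, Rtp1, Rtp2 and Reep1, and the regulators of receptor choice Lhx2, Ldb1, Ebf1, Emx2 and Atf5. Of 16 genes, 15 lie on chromosomes 1 to 19, and all 15 had a peak within 50 kb, as did 92.9% of other protein-coding genes. A promoter peak was present at 5 of 15 (33.3%, near the 42.6% of other protein-coding genes). These were Ldb1, a LIM-domain cofactor, at the 44.5th percentile, Gnal, the olfactory G protein subunit, at 44.45, and Ebf1, a transcription factor, at 35.9. Adcy3, the olfactory adenylyl cyclase, was at 14.6 and Reep1 at 13.8. The Ldb1 and Adcy3 summits lay near a TSS inside the gene, away from its outer start. The Reep1 peak did not reach both upper sets.

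Where peaks were called, their median signal was not below that of all peaks. The median signal percentile was 58.3 for all receptor peaks, 66.4 for flank peaks, 59.7 for interior peaks and 54.4 for clusters under 5 genes, against 50 for all peaks. The flank median was 73.45 within 25 kb of the cluster end and 50.3 at 25 to 50 kb. Quartiles were 27.3 and 80.3 in flanks and 32.4 and 73.7 in interiors, so the 2 ranges overlap over most of their length. In the upper sets the flank and interior medians were 65.1 and 57.2 in replicate 1 and 66.6 and 60.02 in replicate 2. In the conservative list they were 66.1 and 54.9. Peaks found in both upper sets made up 79.9% of receptor peaks, 77.2% of flank peaks and 84.3% of interior peaks, against 78.5% of all peaks. Interior peaks were fewer, and the share of them found in both libraries was not lower.

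**Figure D3:**
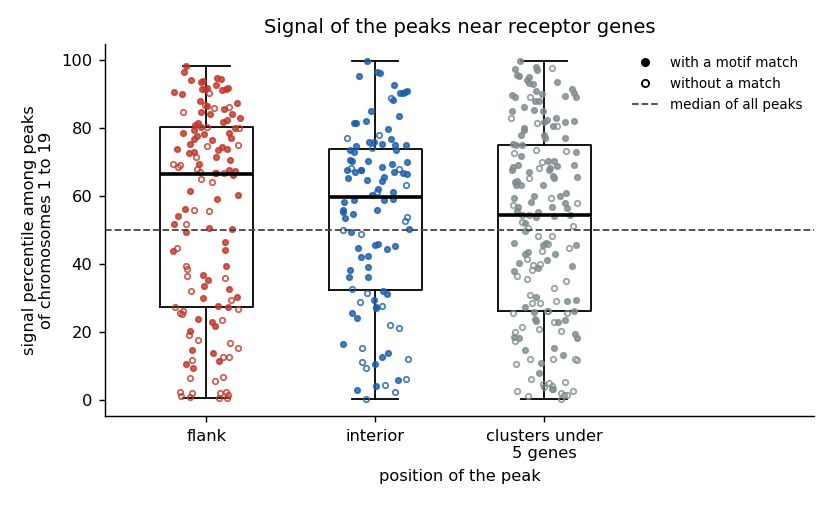
Signal percentile (vertical axis, 100 is the highest signal among peaks of chromosomes 1 to 19) of each receptor peak in flanks, interiors and clusters under 5 genes; filled circles have a motif match, boxes show quartiles with the median as a thick line, whiskers reach the lowest and highest peak. The medians are 66.4, 59.7 and 54.4, all above the dashed line at 50, and the boxes overlap.

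A motif match lay within 100 bp of the summit in 65.2% of receptor peaks (60.5 to 69.6), 60.3% of flank peaks (51.9 to 68.1) and 75.9% of interior peaks (67.1 to 83.0), against 57.6% of all peaks. Starts of other protein-coding genes lay within 1 kb of 22.1% of flank peaks and 0.926% of interior peaks, against 16.7% of all peaks; their part in these shares was not tested. Peaks with a match had the higher median percentile in flanks (73.8, against 33.9 without) and in interiors (64.9, against 32 without). Over all peaks the medians were 62.1 with a match and 35.6 without. Interior and flank peaks without a match were thus slightly lower than all peaks without one.

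The motif showed no common direction at the boundaries. Of 82 flank peaks with a match, 42 matches pointed into the cluster and 40 away from it (51.2% into, interval 40.6 to 61.7). Of the flank peaks nearest to a cluster end, 23 pointed in and 18 away. The interval spans a moderate excess either way, which was not detectable at these counts.

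The interiors held fewer motif matches, and a smaller share of them was bound. Matches numbered 62.8 per Mb in flanks, 33.5 per Mb in interiors and 57.2 per Mb over chromosomes 1 to 19. A match was called bound when a peak summit lay within 100 bp of its centre. Bound were 33.9% of matches in flanks (28.2 to 40.01), 9.51% in interiors (7.74 to 11.6) and 27.3% on the chromosomes. Matches of like score were compared next. Outside soft-masked sequence, matches of 15 to 17 bits were bound in 58.5% of cases in flanks, 21.3% in interiors and 42.9% on the chromosomes, and those of 17 to 19.58 bits in 81.8%, 46.2% and 75.5%. Past 19.58 bits, which 1 in 100000 control positions pass, 17 of 18 flank matches and 15 of 23 interior matches outside soft-masked sequence were bound. The chromosome share was 92.0%. With soft-masked sequence included, 21 of 25 flank matches and 20 of 30 interior matches (66.7%, 48.8 to 80.8) were bound. The share on the chromosomes was then 82.0%. In soft-masked sequence past 19.58 bits the order was different, with 4 of 7 bound in flanks, 5 of 7 in interiors and 68.1% on the chromosomes.

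Some strong unbound interior sites had a repeated run of bases around them. Unbound sites in flanks and elsewhere were not counted this way, so the share cannot be called particular to interiors. Of the 10 unbound interior matches past 19.58 bits, 6 lay in surroundings (100 bp on each side) where some run of 50 bases occurs more than once on chromosomes 1 to 19, X and Y, and none of these 6 had a peak even in the relaxed pooled list of 300000 peaks. In these 6 the share of 50-base runs that occur once ranged from 0 to 89.4%. The other 4 had surroundings that occur once, and all 4 had a relaxed peak. Among the 20 bound matches, 19 had surroundings that occur once, and in the remaining match 94.1% of such runs did. The split was less clean with runs of 36 bases. More bound matches then had repeated runs, the lowest at 75% single, and the 6 unbound matches ranged from 0 to 82.6%. A pair of unbound matches on chromosome 2, at chr2:90194898-90194956 and, on the opposite strand, chr2:90351737-90351795, is shown because the copies are identical over 59 bases although 156.8 kb apart.
Unbound match present in 2 copies, + strand of the first: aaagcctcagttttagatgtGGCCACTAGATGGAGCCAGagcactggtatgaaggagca
A second identical pair, also unbound, lies 21.1 kb apart on chromosome 11, beside Olfr1375 and in Olfr54. A read that fits both copies of such a pair cannot be placed on either, and how the authors treated such reads is not given in the sources used here. The part of read placement in the missing peaks was not tested.

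Over whole regions, sequence that occurs once was somewhat rarer in interiors. Runs of 50 bases were single in 86.7% of flank positions, 82.0% of interior positions and 89.4% of chromosome positions, and runs of 36 bases in 81.8%, 75.5% and 86.1%. Per Mb of positions with a single 36-base run, the density was 42.6 in flanks and 5.48 in interiors, and the interior ratio to the chromosomes was 0.177, against 0.155 without this scaling. The read length of the libraries is not given in the sources used here, and the part of read placement in the difference was not tested.

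Base composition also moved with the result. GC content was 41.7% in flanks, 38.6% in interiors and 41.9% on the chromosomes, and the soft-masked share was 38.4%, 47.8% and 33.5%. Other protein-coding genes numbered 21.3 per Mb in flanks and 1.73 per Mb in interiors, against 8.21 per Mb on the chromosomes. In bins of 50 kb, the interior density was lower than that outside receptor windows in all 7 GC bands, by 2.20 to 4.52 times, against 6.26 times with all bands together, and the interior interval lay below the outside density in 6 of the 7. In bins under 36% GC it was 1.11 per Mb in interiors (2 peaks, 0.135 to 4.01), an interval that spans the 3.12 outside. In bins of 42% or more it was 20.5 against 46.4. Bands of GC and soft-masked share together covered 36 to 42% GC and 30 to 60% soft-masked sequence, with 57 of the 111 peaks of interior bins. Interiors were lower in 9 of 9 such bands, by 1.17 to 3.54 times. With 2 to 19 interior peaks a band, the interior interval spanned the outside density in 7 of the 9, so those differences were not detectable at these counts. The parts of base composition and of gene density in the difference were not tested.

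**Figure D4:**
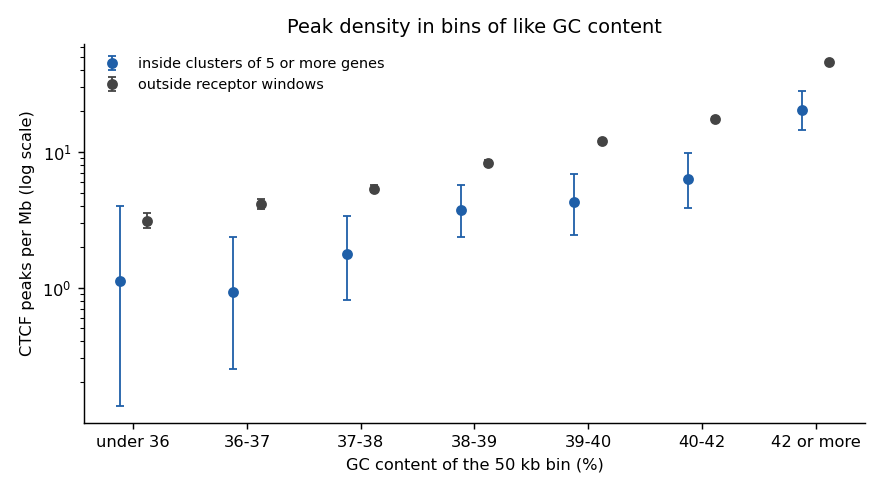
CTCF peaks per Mb (vertical axis, log scale, with 95% Poisson intervals) in 50 kb bins inside clusters of 5 or more genes (blue, left of each pair) and outside receptor windows (grey), by GC content of the bin in percent. Interiors are lower in all 7 bands, and both series are higher at higher GC.

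Flank against interior density in other clustered families gives a scale. In clusters of 5 or more vomeronasal receptor genes, built the same way, flanks held 13.7 and interiors 2.22 peaks per Mb. In clusters of Zfp genes flanks held 53.8 and interiors 35.9 per Mb. Olfactory receptor clusters stood at 34.9 and 4.14.

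Interiors were below the chromosome density in every rank band of the pooled relaxed list. The interior ratio to the chromosome density was 0.164 among peaks ranked 1 to 20000 and 0.132 among ranks 40001 to 65000, and it was 0.333 among ranks 200001 to 300000. The flank ratio was 1.85 in the top band and 0.841 in the last. Over the whole relaxed list flanks held 119.2 and interiors 26.03 peaks per Mb, a ratio of 4.58, against 8.42 in the optimal list.

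The Olfr543 to Olfr650-ps1 cluster had the highest interior density of the 10 clusters with the most genes. The smaller clusters that follow it on chromosome 7, Olfr651 to Olfr664 and Olfr665 to Olfr692, held 10.9 and 12.2 per Mb. Class I receptors, the family shared with fish, lie on chromosome 7 around the beta-globin genes. The Olfr543 to Olfr650-ps1 cluster at chr7:102476579-104207865 has 114 receptor genes and held 4 flank peaks (40 per Mb) and 17 interior peaks (9.82 per Mb). The 2 flank peaks on the left were overlapping calls at percentiles 1.96 and 0.97, and neither was in both upper sets. Replicate 1 gave 18 interior and 2 flank peaks, and replicate 2 gave 17 and 3. Of the 17 interior peaks of the optimal list, 16 were found in both upper sets. A match was present in 12, 5 on the forward and 7 on the reverse strand. Percentiles of the 17 interior peaks ran from 27.5 to 96.2 with a median of 67.1. The strongest lay 3413 bp from the TSS of Olfr650-ps1, near the right end, and the next at Olfr557.

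No peak lay in the 40.7 kb from Hbb-bt to Hbb-y, the adult to the embryonic end of the beta-globin genes. The nearest summit on the Hbb-bt side was 5.45 kb away at percentile 67.1 and carried a match of 18.67 bits on the reverse strand. The nearest on the Hbb-y side was 20.1 kb away at percentile 61.2 without a match, and a peak at percentile 31.9 with a reverse match lay just beyond it. The longest peak-free stretch of the cluster ran 592.6 kb and held 39 receptor genes, to the left of the globin genes.

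**Figure D5:**
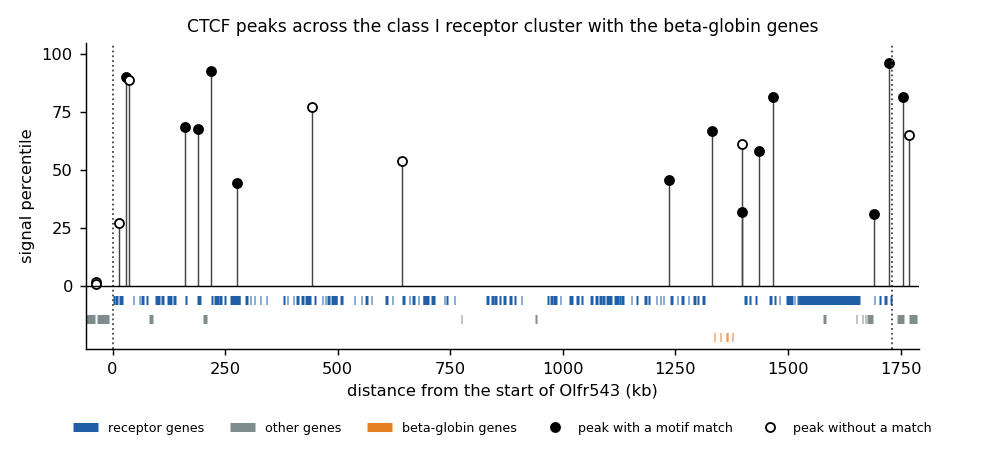
Peaks across the Olfr543 to Olfr650-ps1 cluster by distance in kb from the start of Olfr543 (horizontal axis) and signal percentile (vertical axis). Filled circles have a motif match and dotted lines mark the cluster ends. The rows under the axis show receptor, other and beta-globin genes. Peaks group towards both ends and around the beta-globin genes, with none among the globin genes and a gap of 592.6 kb in the middle.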

How the data were processed

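CTCF peak lists of 2 libraries of 1 group were used. Per the notes deposited beside the files, the authors made narrowPeak lists on mm10 for each library, for both pooled, and conservative and optimal lists thresholded for irreproducible discovery rate. No aligner, caller or threshold is given in the sources used here. The deposited signal value of each peak depends on depth and caller, so it served only as a rank within a list. The authors' q-values, on a −log10 scale, are heavily tied and ranked nothing. Depth is unknown, so intervals (95%, Poisson or Wilson) cover counting error only.

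Densities are summits per Mb of bases that are not N, from GRCm38.p6 (the same assembly) with GENCODE M21 genes. Overlapping calls of a list were counted as separate peaks. Motif matches were scanned on both strands. Python 3.11.15, numpy 2.4.6, pandas 2.3.3, scipy 1.17.1 and matplotlib 3.10.9 were used. Density and motif calculations were tested on simulated data, and the count of repeated runs on a planted copy. With 1 group no test was made.

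Named were the 10 clusters with the most genes, the 3 densest and the emptiest clusters of 10 or more genes, the highest-signal flank and interior peaks, receptors with a promoter peak, and short lists of kidney-reported, globin and odorant signalling genes. The members and lists were chosen with earlier results of these data known. Runs of bases that occur once were counted after the densities had been seen. Alternatives changed the peak list, signal threshold, library, genes counted, distances, cluster rules and motif.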

Additional observations from a re-analysis of the deposited data

How the results depend on the processing

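No paired analysis was possible because the study has 1 group. Of 58 alternatives, 35 moved a value past its limit. The limit was the spread between libraries, which is small, or, for the share in both upper sets, its Wilson interval. The single-library values that give the spread are among the 58. The receptor density stayed under that of the chromosomes in 10 of 10 settings and the flank density above the interior in 13 of 13. The density ratio (0.436) was 0.44 in the conservative list, 0.508 in the upper 50% of signal, 0.419 for protein-coding receptors, 0.294 at 20 kb, 0.606 at 100 kb, 0.159 in gene bodies and 0.448 per base of any kind, and 0.422 to 0.423 with 1 library left out. The flank to interior ratio (8.42) was 7.24 in the conservative list, 4.87 with gaps of up to 500 kb, 9.66 for clusters of 10 or more genes and 6.63 without peaks at other promoters, and 7.65 to 9.03 with 1 library left out. Per Mb of positions whose 36 or 50 bases occur once, a denominator chosen after seeing the data, it was 7.77 and 7.97, and in the pooled relaxed list, also added then, 4.58. The median percentile (58.3) was 59.4 in the conservative list, 64.3 at 20 kb and 57.9 at 100 kb, and 59.7 to 59.8 with 1 library left out. Promoter peaks (1.07%) came to 0.715% in the upper 50% of signal and 3.07% at 2500 bp, and 0.858 to 1.14% with 1 library left out. Motif matches (65.2%) came to 68.3% in the conservative list and 78.6% in the upper 50% of signal, and 64.8 to 68.1% with 1 library left out. The letters AGGGGGC or AGATGGC were in 25.9% of receptor peaks and in 25.5% of all peaks. Directions into the cluster (51.2%) turned, with more matches away than in, under 4 of 7 alternatives. They came to 45% in the upper 50% of signal, 48.1% with gaps of up to 500 kb, 48.1% for clusters of 10 or more genes and 35.5% by letters, and 50.6 to 51.2% with 1 library left out. Peaks in the upper set of both libraries (79.9%) came to 89.0% in the conservative list. Both libraries come from 1 biosample, and unknown depth limits what an absent peak shows.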
